A study of Mus musculus with 3 samples.

Results

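The ribosomal proteins of the cytosol were followed here in the back skin of male mice on Affymetrix GeneChip mouse expression arrays. Each of the 3 groups had 1 array, hybridised with pooled RNA. The members are all probe sets whose single platform gene symbol is Rpl or Rps followed by a digit, or is Rplp0, Rplp1, Rplp2 or Rpsa, without the Rps6k kinases and without pseudogene symbols. This rule gave 106 of the 45037 probe sets that are not controls, and these read 50 of 18193 genes. Of the 50 genes, 20 encode proteins of the large subunit, 21 encode proteins of the small subunit, 2 encode proteins of the P stalk and 6 are paralogs, while Rps19bp1 is named after Rps19 and encodes no ribosomal protein. A further 110 probe sets carry a member symbol together with other symbols, many of them of pseudogenes, and were kept apart.

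The WT group held 5 C57BL/6J mice on an AIN-93-based diet, the KO group held 7 interleukin-10 knockout mice on the same diet, and the KOE group held 6 knockout mice whose diet contained 8% pESM, a powder of eggshell membrane. Feeding started at an age of 4 weeks and lasted 28 weeks, and the skin was freed of dermal white adipose tissue before RNA extraction. The KO mice were bred from B6.129P2-IL-10<tm1Cgn>/J and C57BL/6J parents, whereas the WT mice were C57BL/6J, so that the knockout and the breeding cannot be told apart. Which mice of a group entered its pool is not stated. The single array of each group leaves every difference without a replicate check, and none was tested.

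The values are linear signal intensities, and each gene is given by the probe set that was strongest on average. A gene was counted as past the cut-off where the ratio of both arrays was at least 1.5 in either direction and the signal reached 40 on at least 1 of them. Il10, the altered gene, had WT, KO and KOE signals of 17.0, 679.9 and 401. Whether its probe set lies within the disrupted part of the gene was not tested, and the values do not check the knockout. Several marker lists of the tissue differed widely between the arrays, with 6 of 6 genes of the hair follicle, 4 of 4 of melanocytes, 3 of 3 of adipocytes, 3 of 3 of dividing cells and 6 of 6 of skeletal muscle lower in KO vs. WT beyond this cut-off. Of 6 dermal fibroblast markers 1 was lower in KO vs. WT, and none of 3 T cell and 4 macrophage markers passed the cut-off. With a common median of the arrays, 1 gene of each of these last lists was higher in KO vs. WT. None of 6 epidermal markers passed it in KO vs. WT or in KOE vs. KO, though 1 was higher in KO vs. WT with a common median of the arrays, and on the WT, KO and KOE arrays they summed to signals of 103900, 121154 and 126896. In bulk skin, fewer cells of a type and less RNA per cell cannot be told apart.

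Cytosolic ribosomes consist of a small subunit, which reads the mRNA, and a large subunit, which joins amino acids, and the cell makes their proteins in matched amounts. Most mRNAs of this family start with a run of pyrimidines, the terminal oligopyrimidine or TOP motif, through which mTORC1 and the RNA-binding protein Larp1 set their translation. The abundance of these mRNAs is therefore only a part of their control, and translation was not measured here. In mouse skin, loss of function in Rps19 or Rps20 is known to darken the skin through p53 in keratinocytes, and human RPL21 variants are known in hereditary hair loss. Several members, such as Rplp0, Rpl13a, Rps18 and Rpl19, serve as reference genes in PCR.

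The genes of both subunits and the stalk differed little between the 3 arrays where the probe set that gives the gene was strong. Of the 43 genes of both subunits and the stalk, 34 had a mean signal of at least 5000, with none between Rpl37 at 4777, the highest of the weak genes, and Rpl8 at 20108. All 34 lay within 0.25 on the log2 scale of no difference in each of the 3 comparisons. Their median log2 fold change was 0.11 for KO vs. WT, −0.00 for KOE vs. KO and 0.10 for KOE vs. WT. In KO vs. WT the values ran from −0.01 to 0.22, with an SD of 0.05 over the 34 genes, and 32 of the 34 were above 0. In KOE vs. KO they ran from −0.11 to 0.10, and 16 were above 0. In KOE vs. WT they ran from 0.02 to 0.23, and all 34 were above 0. KO vs. WT and KOE vs. KO share the KO array, and KOE vs. WT shares an array with each of them, so that the 3 sets of values are not independent. Of the 100 highest signals on the WT, KO and KOE arrays, 71, 71 and 67 came from probe sets with a member symbol. Whether signals this high still follow the amount of RNA was not tested.

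**Figure D1:**
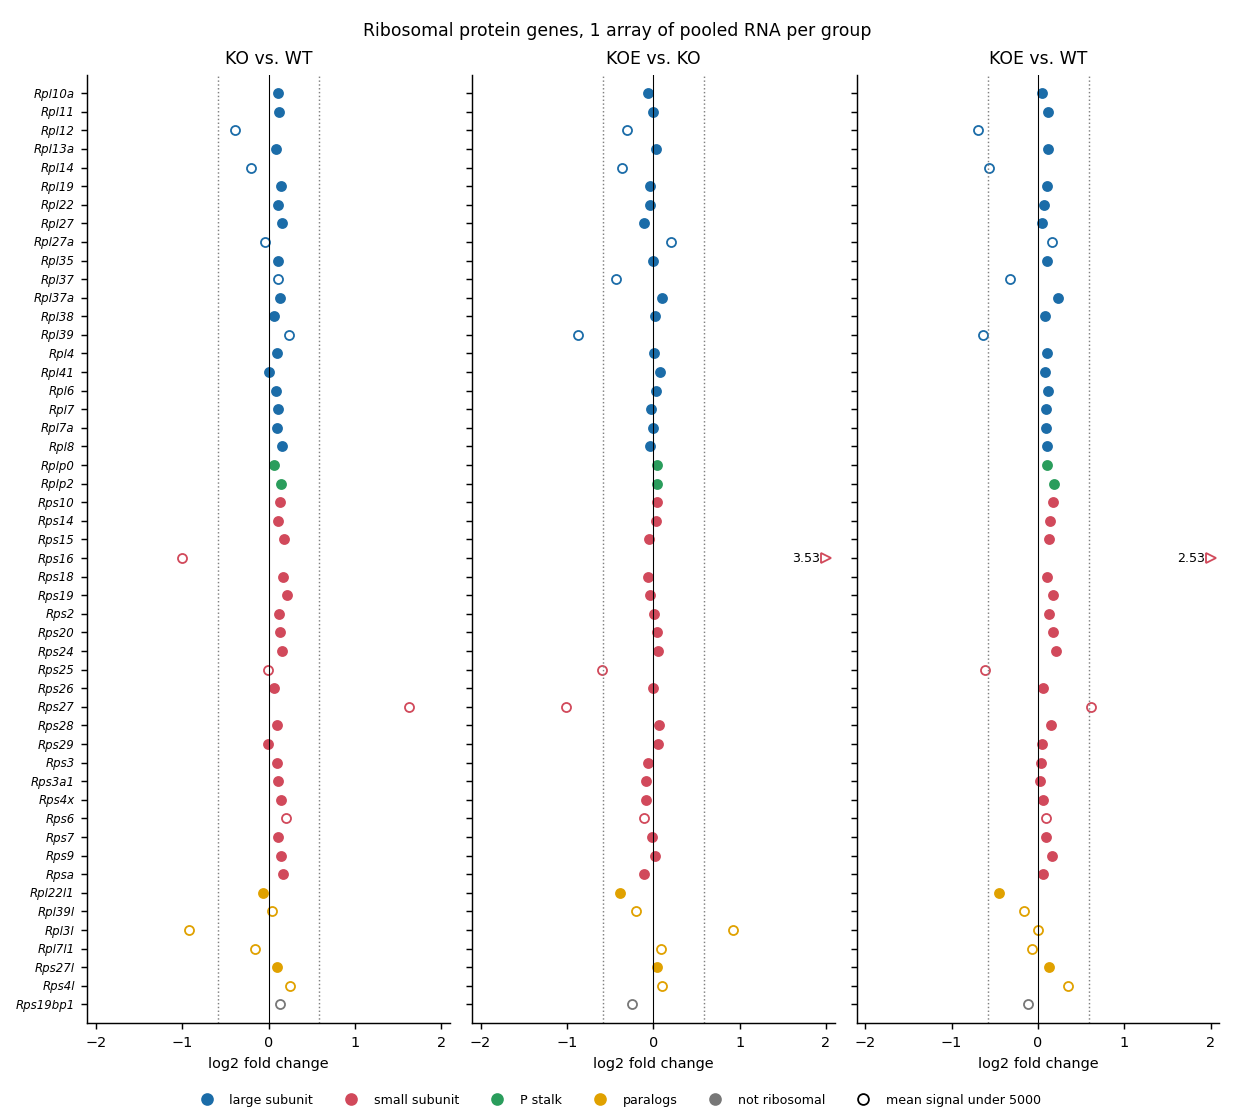
Log2 fold change of each of the 50 genes (rows) in the 3 comparisons (panels), coloured by class, with open symbols for genes whose mean signal was under 5000 and dotted lines at a ratio of 1.5. Filled symbols of subunit and stalk genes lie within 0.25 of 0, and most scattered values belong to open symbols. The paralog Rpl22l1 is filled and lies at −0.38 in KOE vs. KO and −0.46 in KOE vs. WT. Rps16, drawn as a triangle at the edge with its value, was under a signal of 40 on all arrays.

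In the large subunit, 15 of 20 genes were strong, and their median was 0.11 in KO vs. WT and −0.00 in KOE vs. KO. Rpl13a, a protein that also takes part in translational silencing after interferon, had WT, KO and KOE signals of 34311, 36309 and 37202. Rpl11, which binds Mdm2 and thereby links the ribosome to p53, had 19908, 21600 and 21557, so that KO and KOE were alike and slightly above WT. Rpl38, which is known for its part in the patterning of the mouse body axis, had 34422, 35966 and 36432. Rpl37a had 25736, 28107 and 30120, and its log2 fold change of 0.23 for KOE vs. WT was the highest of the 34 genes. Rpl41, the smallest of these proteins, had 27801 in WT and 27783 in KO, and it was one of the 2 strong genes that were not above 0 in KO vs. WT.

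In the small subunit, 17 of 21 genes were strong, with medians of 0.13 in KO vs. WT and −0.00 in KOE vs. KO. Rps19, one of the genes that darken mouse skin when altered, had WT, KO and KOE signals of 22224, 25799 and 25042, and its log2 fold change of 0.22 for KO vs. WT was the highest among the strong genes. Rps20, the other such gene, had 29351, 32095 and 33012. Both were thus higher in KO and KOE than in WT by less than the cut-off. Rps18, a common PCR reference, had 28294, 31790 and 30462. Rps24, mutated in some patients with Diamond-Blackfan anemia, had 27143, 30109 and 31276. Rps29, the other strong gene that was not above 0 in KO vs. WT, had 40713, 40407 and 42058. Rpsa, which is also known as the laminin receptor, had 24206, 27125 and 25152, and its log2 fold change of −0.11 for KOE vs. KO was the lowest among the strong genes.

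The P proteins form the stalk that recruits elongation factors to the large subunit. Rplp0, the base of the stalk, had WT, KO and KOE signals of 28671, 29877 and 30781. Rplp2, which binds to it together with Rplp1, had 28349, 31160 and 32172. Rplp1, like Rpl5, Rpl21, Rpl24 and Rpl32, was read only by probe sets with several symbols. In both stalk genes WT was lowest and KOE highest, by a log2 fold change of 0.10 and 0.18 for KOE vs. WT.

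Sequence around the annotated start of transcription was taken from RefSeq (build GRCm38.p6) for the 44 of 50 genes that had an entry. It is shown for 12 members, most of them described above, with the run of C and T near the start. Each window holds the 10 bases before the start and 18 bases from it on, on the strand of the gene, and capitals mark the run of C and T that covers the start or lies within 5 bases of it. The first 8 genes hold a run of at least 8 and the next 4 hold a shorter one. A marked run need not begin at the start, so it is not by itself a TOP motif.
Rpl13a, chr7:45128728-45128755, minus strand: cctgcgacaagaCCTCCTCCTTTCCCag
Rps18, chr17:33955648-33955675, minus strand: cacttccgCTCTCTCTTCCacaggaggc
Rps10, chr17:27635227-27635254, minus strand: gcgcacgCCCCTTCCTTTCCagcctccg
Rpl38, chr11:114668570-114668597, plus strand: aagcctcgTTCTTTCCCCgttctcttcg
Rps24, chr14:24490668-24490695, plus strand: gctggggTCCTTCCTTgcgcgttgatat
Rplp2, chr7:141447641-141447668, plus strand: cagcgTCTTCCTTTCgccgccggacgcc
Rpl27a, chr7:109519185-109519212, plus strand: cgtgagCTCCTCCCTTTTCCCTTTCTgc
Rps6, chr4:86857350-86857377, minus strand: gaagtcgggCCTCTTTTTCgtgacgcct
Rpl11, chr4:136053376-136053403, minus strand: ccataaggCCacggggccggaagtctcc
Rpl37a, chr1:72711250-72711277, plus strand: ctcgccggTCTaaaaccgcgcatgcgca
Rps19, chr7:24884582-24884609, plus strand: aatctcgcgagaCTCgacgcccgacttg
Rplp0, chr5:115559457-115559484, plus strand: cgggtttcgaggaCCgcctggttctcct
Rps19 has 3 annotated starts and Rps24 has 2, of which 1 is shown for each, and the other 10 genes have 1.
A run of at least 8 was found in 15 of the 44 members, or 34.1%, and in 6.29% of the 27025 genes of the table. The annotated start can lie away from the main start of the mRNA, so a short run says only that these letters are not at the annotated base.

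The members with and without such a run had similar ratios. Among the 29 strong subunit and stalk genes with an entry, the 10 with a run of at least 8 had medians of 0.12 in KO vs. WT and 0.02 in KOE vs. KO on the log2 scale. The other 19 had medians of 0.11 and −0.04. The ranges overlapped, from 0.06 to 0.17 and from −0.00 to 0.22 in KO vs. WT.

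The letters CCGGAAG, the core of the site for ETS family factors such as GABP, stood on either strand within the 250 bases before and 50 bases after the start in 21 of the 44 members, or 47.7%, and in 9.12% of all genes of the table. It is shown in capitals below for 3 strong members, in the 100 bases before and 18 bases from the start on. A match is a description of the letters and not a bound site.
Rps18, chr17:33955648-33955765, minus strand: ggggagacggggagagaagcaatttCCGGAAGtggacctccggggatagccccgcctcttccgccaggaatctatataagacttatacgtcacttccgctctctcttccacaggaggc
Rpl38, chr11:114668480-114668597, plus strand: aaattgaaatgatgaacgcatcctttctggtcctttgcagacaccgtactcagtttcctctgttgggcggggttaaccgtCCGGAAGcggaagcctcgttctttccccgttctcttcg
Rps10, chr17:27635227-27635344, minus strand: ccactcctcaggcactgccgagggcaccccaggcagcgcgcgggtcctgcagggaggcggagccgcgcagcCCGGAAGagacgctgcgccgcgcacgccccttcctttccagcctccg
The 14 strong genes with these letters had a median log2 fold change of 0.11 for KO vs. WT, and the 15 without them also had 0.11.

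Few members passed the cut-off. In KO vs. WT, 49 of the 50 genes reached 40 on at least 1 array, and among them 1 was higher (Rps27), against 10.9% of all genes reaching 40, and 1 was lower (Rpl3l), against 14.5%. In KOE vs. KO, 1 was higher (Rpl3l), against 10.9% of all genes, and 3 were lower (Rpl39, Rps25 and Rps27), against 5.33%. In KOE vs. WT, 1 was higher (Rps27), against 12.4%, and 3 were lower (Rpl12, Rpl39 and Rps25), against 10.4%. None of the 3 lower in KOE vs. WT remained after the arrays were scaled to a common median. After quantile normalization and after cyclic loess, Rpl12 and Rps25 were still lower in KOE vs. WT and Rpl39 was not. The 3 lower in KOE vs. KO remained under all scalings, and a common median added Rpl37 to them. The share of members past the cut-off was thus below the share of all genes in 5 of these 6 counts and near it for the lower genes in KOE vs. KO, 6.12% of members.

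All genes past the cut-off were read by weak probe sets. Rps27, a zinc finger protein of the small subunit, had WT, KO and KOE signals of 135.6, 418 and 208, so that the KO value stood above both others. Its log2 fold change was 1.63 in KO vs. WT and −1.01 in KOE vs. KO. A probe set annotated to both Rps27 and Rps27rt had 20242, 22548 and 21932, with log2 fold changes of 0.16 and −0.04.

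Rpl39, which lines the exit tunnel of the large subunit, had WT, KO and KOE signals of 149.7, 175.5 and 95.9. The probe set annotated to Rpl39 and 1 more symbol had 34807, 37473 and 36693, and its log2 fold change for KOE vs. KO was −0.03 where the weak probe set gave −0.87. Rps25, which is needed for translation from some internal ribosome entry sites, had 1090, 1080 and 714.6, with a log2 fold change of −0.60 for KOE vs. KO. The strong probe set that holds Rps25 among 3 symbols had 20902, 23888 and 22854, with a log2 fold change of −0.06. Rpl12, a protein near the base of the stalk, had 523.8, 399.5 and 324.2, with a log2 fold change of −0.69 for KOE vs. WT. A strong probe set with Rpl12 among 4 symbols had 25535, 28899 and 27942, with a log2 fold change of 0.13. In these 4 genes the strong probe sets that carry other symbols too gave small differences, and the weak probe sets with 1 symbol gave the calls.

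Sequence at the starts of these 4 genes is shown with the run of C and T in capitals, as above.
Rps27, chr3:90213631-90213658, minus strand: cgctttcgCTCCTTTCCggcggtgacga
Rpl39, chrX:37085205-37085232, minus strand: gctccgCCTCTagcgacttcttctaatc
Rps25, chr9:44407704-44407731, plus strand: ccgacaTCTTagcgaggctgctgtggtc
Rpl12, chr2:32961702-32961729, plus strand: agcaggatccgTCTTTTCggctttcggc
Rps27 holds a run of 9 and the others hold runs of 5, 4 and 7.

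The other subunit genes read by weak probe sets were Rpl14, Rpl27a, Rpl37, Rps6 and Rps16. Rps6, the substrate of the S6 kinases, had WT, KO and KOE signals of 2966, 3416 and 3165. Its strong probe sets with 2 symbols had log2 fold changes between −0.39 and 0.06 for KOE vs. KO. Rpl27a, another gene whose alteration is known to affect pigment in mice, had 3589, 3476 and 4014. A strong probe set with Rpl27a among 5 symbols had 29346, 29960 and 31999. Rpl37 had 4973, 5377 and 3980, with a log2 fold change of −0.43 for KOE vs. KO. The strong probe sets annotated to both Rpl37 and Rpl37rt had −0.02 and −0.007 in that comparison. Rpl14 had 549.3, 477.6 and 371, with −0.57 for KOE vs. WT, while its strong probe sets with 2 symbols lay between 0.22 and 0.35 for KOE vs. WT. Rps16 was listed at 3.09, 1.55 and 17.9 and was not counted, because all 3 values were under 40. A probe set with Rps16 among 3 symbols had 30304, 34866 and 33157. Over the 9 genes read by weak probe sets, the median log2 fold change was −0.01 in KO vs. WT and −0.36 in KOE vs. KO. Their SD in KO vs. WT was 0.70 against 0.05 in the strong genes. These values describe the weak probe sets.

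The same split by signal held over all probe sets of the family. Of the 106 with 1 symbol, 70 had a mean signal of at least 5000, while 1327 of all 45037 did. The brightness of a probe set depends on its probes as well as on the transcript, so these signals do not rank the genes. Counts past the cut-off are again read beside the share among all probe sets that reached 40 on at least 1 of both arrays. In KO vs. WT, 3 member probe sets were higher (10.6% of all reaching 40) and 6 were lower (20.2%), and with a common median these numbers became 5 and 4. In KOE vs. KO, 4 were higher (14.5%) and 4 were lower (5.93%). In KOE vs. WT, 3 were higher (13.2%) and 8 were lower (14.5%), and with a common median 3 and 3. Only 1 of the 70 strong probe sets was past the cut-off in any comparison. It reads Rpl22, an RNA-binding protein of the large subunit, and had WT, KO and KOE signals of 4167, 6419 and 5618, a ratio of 1.54 for KO vs. WT. The other 2 Rpl22 probe sets had 28276, 30544 and 29738, and 18634, 20785 and 19018, with log2 fold changes of 0.11 and 0.16 for KO vs. WT where the first gave 0.62. Among the probe sets with several symbols, 81 were strong, and their medians were 0.11, −0.02 and 0.10 in the 3 comparisons. None of these passed the cut-off in KO vs. WT or in KOE vs. KO, and 1 of them, annotated to Rps6 and 1 more symbol, was lower in KOE vs. WT with signals of 7447, 6012 and 4578.

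**Figure D2:**
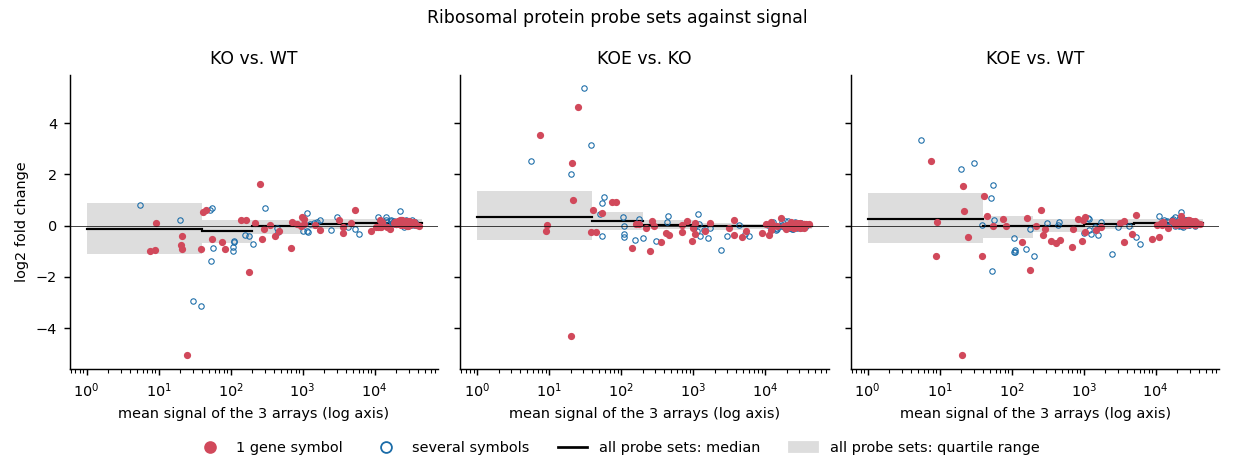
Log2 fold change (vertical) against the mean signal of the 3 arrays (horizontal, log axis) for the 106 probe sets with 1 symbol (filled) and the 110 with several symbols (open), with the median and the quartile range of all probe sets in each signal range as a line and a grey band. Above a signal of 5000 most of the members form a narrow band near the line, and below 1000 they spread widely.

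Probe sets of 1 gene gave a measure of the spread between probe sets on the same arrays. They share the array, the pooled RNA and its labelling. Their spread therefore leaves out variation between arrays and mice and is not the error of a ratio. Among the 24 genes with several probe sets, the log2 fold changes of strong probe sets of a gene differed with an SD of 0.11 in KO vs. WT, 0.08 in KOE vs. KO and 0.11 in KOE vs. WT, over 18 genes and 52 probe sets. Among probe sets under 5000 the SD was 1.18, 1.83 and 1.54, but it was 0.28, 0.28 and 0.19 over the few that reached 40 on both arrays, 7, 9 and 7 probe sets of 3, 4 and 3 genes. Probe sets of a gene differed by over 2-fold in their ratios in 5, 3 and 5 of the 24 genes. With only the probe sets that reached 40 on both arrays, a limit chosen after seeing the data, this held in 2, 0 and 2 of 20 genes, and both times the genes were Rps9 and Rps24. Such a limit takes out extreme ratios by itself, and the few probe sets left do not show how other weak probe sets behave. The gaps of Rps9 and Rps24 in KO vs. WT and KOE vs. WT remained under it.

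With no limit on the signal, the genes concerned were Rpl27a, Rps4x, Rps6, Rps9, Rps18, Rps24 and Rpsa. Rps18 had, beside the strong probe set given above, one with WT, KO and KOE signals of 37.9, 22.4 and 1.13 and another with 14.2, 7.65 and 41.2, and most of these values are under 40. Rps9, a protein needed for accurate decoding, had 18828, 20733 and 20993 in its strongest probe set and 340.4, 97.9 and 102 in its weakest, so that the log2 fold changes for KO vs. WT were 0.14 and −1.80. Rps24 had a weak probe set with 993, 545.8 and 559, which was lower in KO past the cut-off, while its 4 strong ones were higher in KO by less than the cut-off. Rpl27a had a second probe set with 42.6, 1.28 and 31.4, of which 1 value is over 40, so that it gives no usable ratio. The 4 probe sets of Rpl13a disagreed by less than 2-fold. Of these, 2 were lower in KOE than in WT, with 4474, 3669 and 2866, and 10637, 9087 and 7341, while the other 2 were slightly higher. Rps10 had 5 strong probe sets whose log2 fold changes for KO vs. WT lay between 0.02 and 0.14, and a weak one with 79.2, 51.1 and 95.6.

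**Figure D3:**
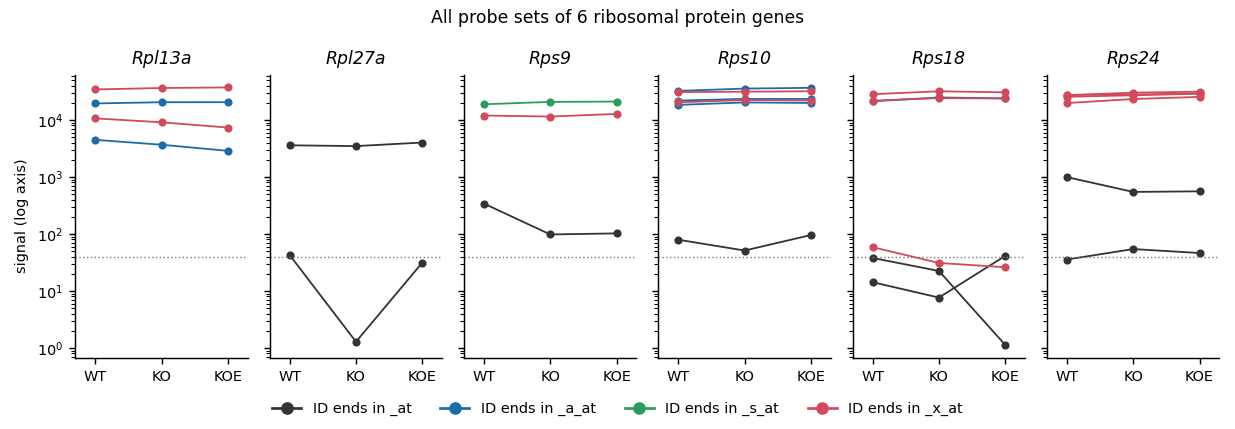
Signal (vertical, log axis) of each probe set with 1 symbol on the WT, KO and KOE arrays for 6 genes, coloured by the ending of the probe set name, with a dotted line at the signal limit of 40. Most strong probe sets run almost level, and weak ones of the same gene, most of them ending in _at alone, differ between arrays in different ways. Among the strong ones, a probe set of Rpl13a falls (10637, 9087 and 7341) and one of Rps24 rises (19779, 23261 and 25375).

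The ending of a probe set name shows how specific its probes are on this platform. There _a_at marks probes that match several transcripts of the same gene, whereas _s_at and _x_at mark probes shared with other genes. Of the 106 probe sets, 35 end in _at alone, 28 in _a_at, 3 in _s_at and 40 in _x_at. In KO vs. WT 7 of the 9 probe sets beyond the cut-off end in _at alone. This ending is held by 6 of 8 member probe sets with a mean signal under 40 and 8 of 8 from 40 to 200. It is held by 9 of 12 from 200 to 1000, 6 of 8 from 1000 to 5000 and 6 of 70 at 5000 and over. The ending and a weak signal thus went together and were not separated. Cross-reacting probes can sum the signal of a gene and of its pseudogenes, and their part in the level values of the strong probe sets was not tested.

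The paralogs, which arose by gene duplication and replace or accompany their partner in some tissues, did not share 1 pattern. Rpl3l, which replaces Rpl3 in striated muscle, had WT, KO and KOE signals of 100.3, 52.9 and 99.98. It was thus lower in KO and alike in WT and KOE, with log2 fold changes of −0.92 in KO vs. WT and 0.92 in KOE vs. KO. The 6 skeletal muscle markers moved in the same directions, with a median of −1.65 in KO vs. WT, where 6 of 6 were lower, and of 2.16 in KOE vs. KO, where 6 of 6 were higher, and they summed to WT, KO and KOE signals of 21031, 5422 and 29310. Myh4, the fast IIb myosin heavy chain, had 4309, 217.1 and 3926, and Ckm, the muscle creatine kinase, had 1942, 740.9 and 2916. The part of the muscle content of the samples in the Rpl3l values was not tested.

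Rpl22l1, the paralog of Rpl22, had WT, KO and KOE signals of 12659, 12044 and 9233. It was lowest in KOE, with log2 fold changes of −0.07 for KO vs. WT, −0.38 for KOE vs. KO and −0.46 for KOE vs. WT, all 3 below the range of the 34 strong subunit and stalk genes and short of the cut-off. After cyclic loess it passed the cut-off in KOE vs. WT. Its partner Rpl22 had log2 fold changes of 0.11, −0.04 and 0.07. The 3 markers of dividing cells were also lower in KOE than in WT, where 3 of 3 were beyond the cut-off and the median was −1.24. In KO vs. WT, where Rpl22l1 differed by only −0.07, 3 of 3 were likewise lower beyond it, with a median of −0.87. In KOE vs. KO none of the 3 was beyond it, and the median was −0.34. Their part in the Rpl22l1 values was not tested.

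At the annotated start of these 2 genes and of Rpl3l, Rpl22l1 holds a run of 10, where Rpl22 and Rpl3l hold runs of 1 and 4, as the capitals show.
Rpl22, chr4:152325716-152325743, plus strand: cctgggaaaagCaatagctggccgatcg
Rpl22l1, chr3:28805498-28805525, plus strand: gcgcaagcccgTTCTCTTCCCacggctg
Rpl3l, chr17:24727816-24727843, plus strand: ttctagCTCTgtcatttgacctctggtg
Rpl22 and Rpl3l each have 2 annotated starts, and 1 is shown.

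The remaining paralogs did not pass the cut-off in any comparison. Rps27l, a p53 target in the Rps27 family, had WT, KO and KOE signals of 12176, 12967 and 13303, with log2 fold changes within the range of the strong subunit genes. Rps4l, the autosomal relative of Rps4x, had 909.1, 1079 and 1156, with a log2 fold change of 0.35 for KOE vs. WT. Rpl39l, known for its role in the testis, had 1514, 1555 and 1357. Rpl7l1 had 1830, 1644 and 1742. Rps19bp1, a binding partner of Rps19 that also activates Sirt1, had 709.6, 776.1 and 653.4. In these strongest probe sets Rps27l and Rps4l were lowest in WT and highest in KOE. Rpl7l1 shared with Rpl3l the lowest value in KO and the highest in WT. Other probe sets differed, as Rps27l was highest in KO at 11200, 12968 and 11599, and at 11951, 13060 and 12698. Another Rpl7l1 probe set was lowest in WT at 864, 1081 and 1013, while one at 305.8, 281.1 and 281.7 was again lowest in KO.

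**Figure D4:**
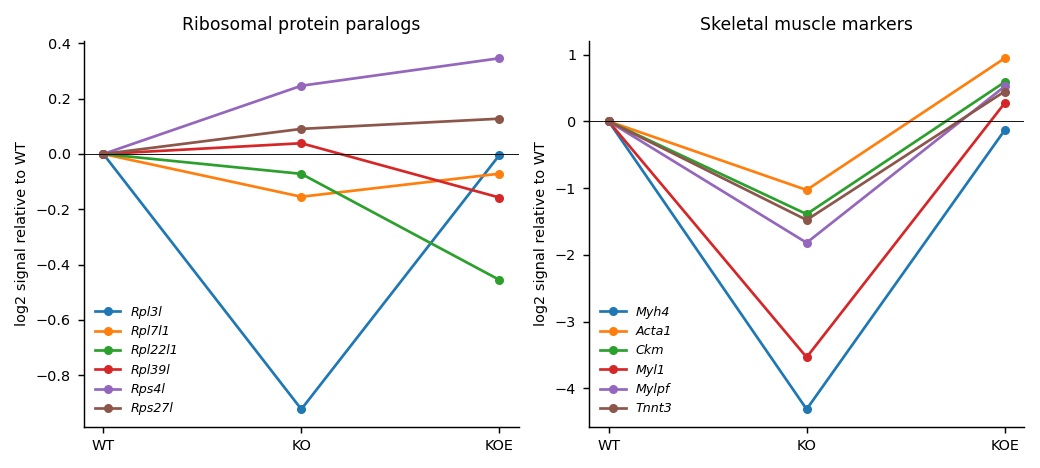
Log2 signal relative to the WT array (vertical, different scales in both panels) on the WT, KO and KOE arrays for the 6 ribosomal protein paralogs (left) and the 6 skeletal muscle markers (right). Rpl3l dips in KO and returns to the WT value in KOE, the muscle markers dip and return further, and Rpl22l1 is lowest in KOE.

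The small shift of the strong members between arrays depended on how the arrays were scaled. In the deposited values each array has a 2% trimmed mean of 500, while the WT, KO and KOE arrays had median signals of 116, 96.3 and 107.5. On the log2 scale the medians of the arrays thus differed by −0.27 in KO vs. WT and 0.16 in KOE vs. KO. For KO vs. WT the median log2 fold change of the 34 strong genes was 0.11 as deposited and 0.38 with a common median. It was 0.03 after quantile normalization and −0.09 after cyclic loess. All 34 were above 0 with a common median, 27 after quantile normalization and 1 after cyclic loess, so that the direction of the shift changed with the scaling. For KOE vs. KO the 4 values were −0.00, −0.16, −0.02 and 0.03, and for KOE vs. WT they were 0.10, 0.21, −0.01 and −0.07. The SD over the 34 genes in KO vs. WT, which a common median cannot change, was 0.05 as deposited, 0.04 after quantile normalization and 0.05 after cyclic loess.

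Other strong probe sets shifted like the members. In KO vs. WT the 1176 probe sets of at least 5000 with no member symbol had a median log2 fold change of 0.12 as deposited, next to 0.11 in the strong members. At signals of 40 to 200 the 12432 probe sets with no member symbol had a median of −0.22, and at 200 to 1000 the median was −0.03. The shift thus followed the signal, from below 0 in weak probe sets to above 0 in strong ones. In KOE vs. KO the order was the opposite, with 0.17 at 40 to 200 and −0.02 at 5000 and over. The strong non-members spread more than the strong members. In KO vs. WT their SD was 1.13, with values down to −11.4. In KOE vs. KO it was 0.29, against 0.05 over the 34 strong genes.

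**Figure D5:**
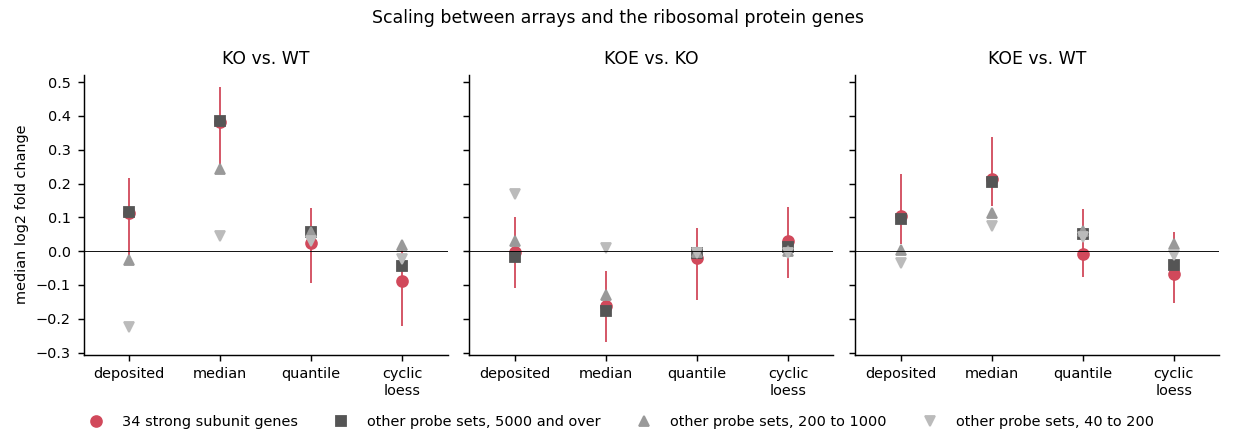
Median log2 fold change (vertical) of the 34 strong subunit and stalk genes and of probe sets with no member symbol in 3 signal ranges, for the 4 scalings of the arrays (horizontal) in each comparison, where vertical lines span the lowest and the highest of the 34 genes. Members and other strong probe sets lie close together, and both move from above to below 0 in KO vs. WT between a common median and cyclic loess.

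Other genes of translation were read from fixed lists. Fau, which encodes the small subunit protein eS30 fused to a ubiquitin-like protein and lies outside the symbol rule, had WT, KO and KOE signals of 22000, 23542 and 23817, much like the strong members. Of 16 elongation factors and other genes with TOP mRNAs, none passed the cut-off in any comparison, with medians of 0.14 in KO vs. WT and −0.08 in KOE vs. KO. With a common median 1 of the 16, Eif4b, was higher in KO vs. WT. Eef1a1, which brings aminoacyl-tRNA to the ribosome, had 33715, 33757 and 36005, and Eef2, which drives translocation, had 14645, 17625 and 16981. Gas5, a noncoding host of small nucleolar RNAs with a TOP start, had 10683, 11850 and 10310.

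Of 31 translation initiation factors, 3 were lower in KO than in WT, or 9.68% against 14.5% of all genes, none was higher, and none passed the cut-off in KOE vs. KO. The 3 were Eif4g3, a scaffold of the cap-binding complex, with 1350, 724.5 and 910.4, and Eif2b4 and Eif2b3, subunits of the exchange factor of eIF2, with 2305, 1301 and 1258, and 945.5, 604.5 and 685.1. With a common median the counts for KO vs. WT were 5 higher and 1 lower, the latter Eif4g3.

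Of 47 genes of ribosome biogenesis, 1 was higher and 5 were lower in KO vs. WT, or 2.13% against 10.9% and 10.6% against 14.5% of all genes, so that both shares were below those of all genes. The median was −0.15, but with a common median 2 were higher and 1 was lower and the median was 0.12. The highest ratio was that of Sbds, which helps to release a factor from the new large subunit, with 1276, 1937 and 1581, a ratio of 1.52 that no longer passed the cut-off after quantile normalization or cyclic loess. The lowest was that of Taf1d, a subunit of the RNA polymerase I factor SL1, with 589.4, 202.8 and 221.9, and it was lower under all 4 scalings. The others that were lower were Nop56, Wdr12, Nat10 and Utp4. In KOE vs. KO 1 gene was higher, Polr1b, a subunit of RNA polymerase I, with 134, 139.2 and 219, and it did not pass the cut-off under any of the 3 other scalings. Ncl, the nucleolar protein nucleolin, had 9571, 9203 and 8304.

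Of 14 genes of mTOR and S6 kinase signaling, 1 was higher in KO vs. WT, Rps6ka6, with 1997, 3451 and 2440, and 1 was lower, the mTOR subunit Mlst8, with 305.7, 191.4 and 242.7. Each is 7.14% of the list, against 10.9% and 14.5% of all genes. Rps6ka6 was higher under all 4 scalings, and Mlst8 was not lower under any scaling but the deposited one. None passed the cut-off in KOE vs. KO, where with a common median Rps6ka6 was lower. Larp1 had 1547, 1405 and 1421. None of 76 mitochondrial ribosomal proteins passed the cut-off in any comparison, with medians of 0.03 in KO vs. WT and −0.05 in KOE vs. KO, and with a common median 4 were higher in KO vs. WT. Of 10 other common reference genes none passed it either, with Actb at 22716, 24380 and 25212 and B2m at 23733, 27503 and 26958.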

How the data were processed

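Pooled back-skin RNA of each group, 250 ng per array, was labelled with a 3' IVT kit and hybridised to 3 Affymetrix GeneChip mouse arrays. The deposited values are linear signal intensities, which the authors made with Microarray Analysis Suite 5 and R. Their 2% trimmed mean was checked to be 500 on each array. The deposited table holds no detection calls. Precision is limited by the number of arrays, 1 per group.

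Control probe sets (64 of 45101) were left out, and no further scaling was applied. Symbols came from the platform annotation, in which 34945 probe sets have 1 symbol, 932 have several and 9160 are unnamed here. The cut-off follows the study's methods, where it is open which array has to reach 40. A gene was named when it was past the cut-off, among the 5 highest or lowest ratios of a comparison, a paralog, a reference gene, known for skin or signaling, or read by probe sets that disagreed by over 2-fold. Rps24, Rpl41, Rps29, Rpl37, Rps10 and others given for contrast were chosen after their values were seen. The members and lists were chosen with earlier results of these data known. Under the main setting, shares of members are read beside the same share over all genes.

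Alternatives were a common median, quantile and cyclic loess scaling (span 0.7, 3 iterations, limma 3.58.1 in R 4.3.3), an offset of 40, other limits and other probe sets. The procedure was tested on simulated data with base signals of at least 40 and planted changes larger than the cut-off. This checks the counting and cannot show how calls behave in weak probe sets or near the cut-off. Promoters came from RefSeq. Python 3.11.15, numpy 2.4.6 and pandas 2.3.3 were used.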

Additional observations from a re-analysis of the deposited data

How the results depend on the processing

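No paired analysis was possible because each group has 1 array. Of the counts and medians over the members under the alternatives, 87 stayed within 1.5 times the count or 0.1 of the median and 48 moved, and the cause was not tested unless the setting itself shows it. Shares over all genes and all probe sets under these alternatives are not given here. The counts below thus show only how the calls of the members changed with the setting. The median log2 fold change of the 50 genes was 0.11 in KO vs. WT, −0.01 in KOE vs. KO and 0.10 for KOE vs. WT. With a common median it was 0.38, −0.17 and 0.21. After quantile normalization it was −0.0098 for KOE vs. WT, and after cyclic loess −0.083 in KO vs. WT and −0.068 in KOE vs. WT. With a common median 5 probe sets were higher in KO vs. WT, and 0 genes and 3 probe sets were lower in KOE vs. WT. After quantile normalization, after cyclic loess and with 40 in both arrays, 2 probe sets were higher in KOE vs. KO, and with 40 in both arrays 1 was higher in KOE vs. WT.

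With 40 added to every signal, 2 probe sets were higher and 2 lower in KOE vs. KO, and in KOE vs. WT 0 genes and 0 probe sets were higher and 1 gene and 4 probe sets were lower. At 2-fold, 0 genes were lower in KO vs. WT with 1 probe set higher and 2 lower, 0 genes were higher and 1 lower in KOE vs. KO with 1 probe set each way, and 0 genes were higher and 0 lower in KOE vs. WT with 2 probe sets lower. At the lower fold limit that was tried, 2 genes were lower in KO vs. WT, 6 genes and 9 probe sets were lower in KOE vs. KO, and in KOE vs. WT 2 genes and 7 probe sets were higher and 5 genes and 13 probe sets were lower.

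Without probe sets ending in _x_at or _s_at, 45 genes remained, with 3 lower in KO vs. WT and 5 lower in KOE vs. WT. With the probe sets of several symbols added, 75 genes and 216 probe sets were read. Then 6 probe sets were higher and 14 lower in KO vs. WT, 9 were higher and 1 gene was lower in KOE vs. KO, and 7 probe sets were higher, 16 were lower and 0 genes were lower in KOE vs. WT. The KOE vs. WT log2 fold changes of Rpl12, Rpl39 and Rps25 were then 0.13, 0.076 and 0.13, short of the cut-off, so that their lower calls were not kept. With a gene given by the average over its probe sets, 2 genes were lower in KO vs. WT, 2 were higher in KOE vs. KO and 2 were higher in KOE vs. WT. Requiring 40 in both arrays left all 6 counts of genes as they were.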
